A study of Mus musculus with 6 samples.

Results

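Chromosome 11 of the mouse was followed here because the knock-in studied lies on it, near its distal end. Its regions were all entries of the deposited accessibility table on chromosome 11 whose mean over the 6 libraries was at least 10. Of 52957 regions in the table, 3284 lay on chromosome 11 and 3202 of these met the minimum, while 82 did not and were not tested. The regions ran from position 3152088 to position 121739126 of the mm39 build. A region was called a promoter region where the table annotated it to a gene with the transcription start site at most 1000 bp away, which gave 872 regions, and the other 2330 were called distal. Of the distal regions, 527 carried an annotated gene farther than that and 1803 carried none. In all, 1138 regions carried a gene symbol, from 916 different genes. The choice of the chromosome used no measured difference between the groups.

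The cells were NIH3T3, an immortal mouse embryonic fibroblast line. Both groups carried a T3H48 hammerhead ribozyme, an RNA motif that cuts its own strand, knocked into intron 3 of Actg1, which encodes gamma-actin of the cytoplasm. One group, with 3 libraries, carried the active form, meant to cleave the Actg1 pre-mRNA, and the other, also with 3 libraries, carried the inactive form of the same ribozyme. The inactive form is therefore the control, and no cells without a knock-in are part of the comparison. Stable genotyped lines are named by the labels, without the number of lines or cultures behind each set of 3 libraries, so p-values measure only the spread between libraries, which may be technical. Ribozyme activity and the history of a line cannot be told apart in this design. Zygosity of the knock-in was not given in the sources used here.

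ATAC-seq uses the transposase Tn5 to tag open DNA, and sequenced fragments therefore collect over accessible promoters and enhancers. Promoters of broadly used genes are open in nearly every cell type, whereas distal regions, many of them enhancers, are open in patterns that differ more between cell types and between sublines of a cell line. Mouse chromosomes have the centromere at the start of the sequence, so the knock-in, at 120.2 Mb, sits close to the opposite end. NIH3T3 cells have an abnormal chromosome number, and read counts over a stretch of a chromosome depend on its copies in the cell as well as on how open they are. No measure of DNA copy number was analysed here. Across a bulk library, fewer cells with an open region and less opening in each cell cannot be told apart.

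A few promoters picked by rule give a first view of the chromosome's regions. Larger rises and falls occurred at other promoters of the chromosome. Printed below are the 250 bases upstream of the annotated start, 5′ to 3′ on the gene's strand, for the 2 promoter regions with the largest rise and the 2 with the largest fall among those named by rule whose region held the annotated start and for which the reference had 1 entry. They are from RefSeq on build GRCm38.p6, with coordinates of that build, not converted to mm39. Wnt9a, at chr11:59306680-59306929 on the plus strand, and Axin2, at chr11:108920099-108920348 on the plus strand, were higher with the active ribozyme. Lgals3bp, at chr11:118401960-118402209 on the minus strand, and Prorsd1, at chr11:29515034-29515283 on the minus strand, were lower. Capitals mark matches, on either strand, to any of 6 motifs, spelled out with their shares after the sequences: the interferon response element, the GAS element, the AP-1 site, the GC box of SP and KLF factors, the ETS site and the TATA box. Matches of different motifs could overlap.
Wnt9a: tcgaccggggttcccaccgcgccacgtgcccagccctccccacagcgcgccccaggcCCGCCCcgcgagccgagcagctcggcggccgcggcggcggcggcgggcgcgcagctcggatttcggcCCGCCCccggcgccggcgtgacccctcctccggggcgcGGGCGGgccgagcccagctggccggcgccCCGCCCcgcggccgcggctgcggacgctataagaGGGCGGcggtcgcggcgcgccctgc
Axin2: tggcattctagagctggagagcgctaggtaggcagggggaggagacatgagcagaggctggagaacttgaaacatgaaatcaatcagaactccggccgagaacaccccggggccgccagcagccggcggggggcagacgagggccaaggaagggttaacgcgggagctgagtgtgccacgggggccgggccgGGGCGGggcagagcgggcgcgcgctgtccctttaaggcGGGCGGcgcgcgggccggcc
Lgals3bp: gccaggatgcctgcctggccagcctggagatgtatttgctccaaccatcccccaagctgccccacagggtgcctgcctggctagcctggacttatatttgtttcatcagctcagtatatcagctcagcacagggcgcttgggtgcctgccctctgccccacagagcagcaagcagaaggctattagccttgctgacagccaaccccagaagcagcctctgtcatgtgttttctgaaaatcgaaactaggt
Prorsd1: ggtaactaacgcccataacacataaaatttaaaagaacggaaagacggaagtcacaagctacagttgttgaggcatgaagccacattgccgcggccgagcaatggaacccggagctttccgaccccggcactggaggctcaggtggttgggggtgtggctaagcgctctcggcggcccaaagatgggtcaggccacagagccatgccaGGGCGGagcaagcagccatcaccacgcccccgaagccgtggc
The capitals in these promoters are all GC boxes. The Wnt9a promoter held 5 of them, that of Axin2 held 2 and that of Prorsd1 held 1, at 42 bases before the start, while that of Lgals3bp held none of the 6 motifs. CpG pairs numbered 48, 24, 2 and 16 in the order printed.

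The tested promoters of chromosome 11 were richer in GC boxes than all RefSeq promoters, whichever way they moved. RefSeq sequences were matched by symbol for 616 of the 762 promoter genes of the chromosome. A GC box, GGGCGG on either strand, occurred in 60.6% of 482 sequences of promoters that fell, in 57.7% of 26 of promoters that rose and in 61.3% of 271 of promoters that passed neither way, against 32.7% of all 32851 RefSeq promoters of the same length. An ETS motif, spelled CCGGAA, occurred in 22.0%, 19.2% and 19.6% of these sets and in 12.03% of all promoters. An AP-1 motif, spelled TGANTCA, occurred in 6.02%, 23.1% (6 of 26 sequences) and 3.69%, against 6.75% of all. Interferon response elements, here a pair of GAAA blocks set 2 bases apart, occurred in 3.11%, 0% and 2.95%, against 2.98% of all. GAS elements, TTC and GAA set 3 bases apart, occurred in 4.56%, 3.85% and 5.54%, against 7.02% of all. TATA boxes, spelled TATAAA, occurred in 6.02%, 11.5% and 2.95%, against 12.4% of all. The 3 sets hold only genes with a tested promoter region, whereas the RefSeq set holds all promoters, open or not. Median GC content was 60.4%, 61.6% and 60.4% in the sets and 52.4% in all. Tested promoters of other chromosomes were not searched, so these shares do not set chromosome 11 apart. A match is a description of letters in this window and was not tested as a binding site.

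The values of the table are scaled and rounded reads per region, with column sums from 6433944 to 6548535, so that a library's raw depth is not known. Gaps in the whole numbers show that active libraries 1 and 2 had been multiplied up by about 1.2 and 1.765, and their low values therefore rest on fewer reads. The promoters of 9 of 10 fibroblast marker genes were in the table, with means from 32 to 827, among them Col1a1 on chromosome 11. By limma, 6 of the 9 were lower with the active ribozyme, among them Vim (-0.56), Pdgfrb (-0.75) and Prrx1 (-0.76), 2 were higher, Col1a2 (0.57) and Twist1 (0.19), and Col3a1 passed neither way. Over all promoter regions of the genome, 36.6% were lower and 22.4% higher. Of markers of other cell types, 1 of 5 epithelial (Krt8), 1 of 4 immune (Cd68) and 1 of 3 endothelial genes (Kdr) had a promoter region. The Krt8 promoter read 136, 171 and 134 with the active and 78, 89 and 88 with the inactive ribozyme (0.78, limma adjusted p = 3.87e-07). The Kdr promoter read 81, 74 and 82 against 6, 5 and 9 (3.42, limma adjusted p = 2.26e-15), while Cd68 passed neither way (0.19). The part of these marker differences in the results on chromosome 11 was not tested.

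The share of chromosome 11 in the summed values was lower with the active ribozyme, and more regions of the chromosome were lower than higher. The chromosome's share of all summed values, as log2 of the parts in 1e6, was 15.84, 15.82 and 15.82 in the active libraries and 16.03, 16.08 and 16.05 in the inactive ones. Every active library lay below every inactive one, with a difference of -0.23 between the means (15.82 ± 0.010 against 16.05 ± 0.024, SD, n = 3 each; exact two-sided permutation p = 0.1, the smallest that 3 against 3 libraries allow). Promoters differed by -0.25 and distal regions by -0.20, each again without overlap (exact permutation p = 0.1 for each).

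By region, the direction was mostly down and the size mostly small. In limma with Benjamini-Hochberg adjustment over all tested regions, 1479 of the 3202 regions (46.2%) were lower with the active ribozyme and 461 (14.4%) were higher at an adjusted p under 0.05, while 1262 passed neither way. Over all 51253 tested regions of the genome, 60.1% passed, 30.9% higher and 29.2% lower. The median log2 fold change, active against inactive, was -0.25 on chromosome 11 and -0.02 over the genome, with quartiles at -0.51 and 0.05 on the chromosome. Fold changes are on the scale of log2(value + 1) throughout, which understates changes of low regions. At 2-fold or more, 269 regions were lower (8.40%, genome 6.86%) and 192 were higher (5.996%, genome 13.4%). At 4-fold or more the counts were 51 lower and 50 higher, beside 627 lower and 2318 higher among the 51253 regions of the genome. The groups of libraries did not overlap in 1504 regions with the active libraries below (genome 30.5%) and in 489 with them above (genome 31.8%). Measured against the median of chromosome 11 itself, a centring added after the data were seen, the split was nearly even, 697 lower and 750 higher. This centring set the median log2 ratio of each library to 0 and so raised the fold changes. Uncentred minus centred, they differed by -0.23 at the median, which is not the same quantity as the median fold change itself, -0.25.

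Across the 20 chromosomes, the median of chromosome 11 was the third lowest, after chromosome 18 at -0.38 and chromosome 9 at -0.29 and next to chromosome 19 at -0.24. The spread of fold changes over its regions was the smallest of the 20, with an SD of 0.76 against 0.96 over the genome. The mean difference was -0.20 on chromosome 11 and -0.22 on chromosome 9, and the libraries overlapped in the difference of 0.0233 between them (exact permutation p = 0.3; 0.0123 to 0.0344 with a library left out). Chromosome 18 had a mean difference of -0.20 too, and differed from chromosome 11 by 0.0039 with overlapping libraries (exact permutation p = 0.9), a value whose sign changed when active library 1 (-0.0079) or inactive library 1 (-0.014) was left out. Chromosome 19 had moved less, -0.15, and the difference of -0.05 from chromosome 11 had no overlap between libraries (exact permutation p = 0.1). All 3 comparisons depended on the filter and the summary. With regions of a mean of at least 30, chromosome 11 was above chromosome 9 by 0.0847 and above chromosome 18 by 0.0516, both without overlap (exact permutation p = 0.1 for each), and its difference from chromosome 19 was -0.0162 with overlap (exact permutation p = 0.2). With medians over regions in place of means, the differences were 0.0597 and 0.114 without overlap (exact permutation p = 0.1 for each) and -0.0028 with overlap (exact permutation p = 0.8). Under quantile normalisation the difference from chromosome 9 was 0.0417, and it was without overlap (exact permutation p = 0.1). Without any 1 of the active libraries, the difference from chromosome 19 overlapped (-0.0491, -0.0456 and -0.0447, exact permutation p = 0.2 for each).

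**Figure D1:**
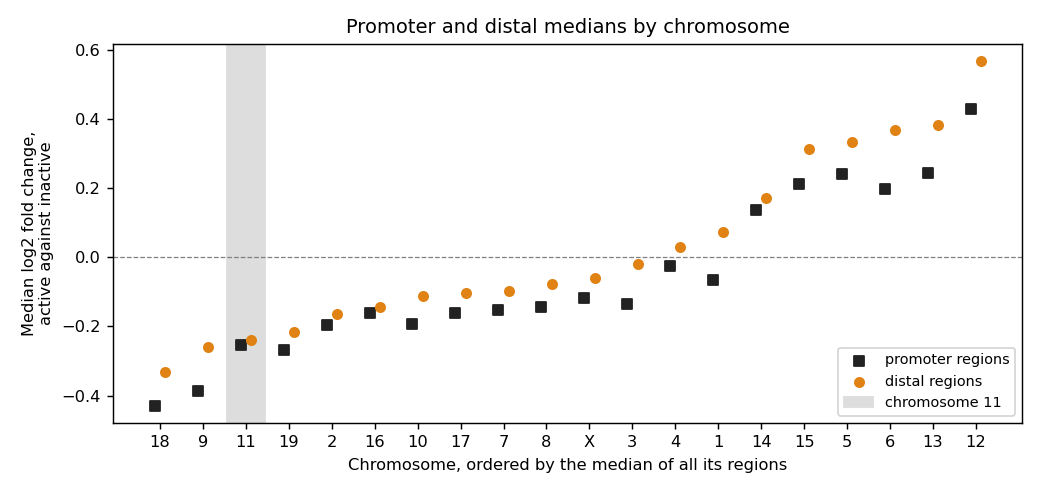
Median log2 fold change, active against inactive, on the vertical axis for the promoter regions (squares) and distal regions (circles) of each of 20 chromosomes, ordered by the median of all regions. Chromosome 11, shaded, has the third lowest median, and its squares and circles nearly coincide, at -0.26 and -0.24, while the promoter median is below the distal one on every chromosome.

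Promoters and distal regions of chromosome 11 had moved down by about the same amount but with very different spread. Among the 872 promoter regions, 529 (60.7%) were lower and 41 (4.70%) higher by limma, against 36.6% and 22.4% of all promoter regions of the genome. Among the 2330 distal regions, 950 (40.8%) were lower and 420 (18.03%) higher, against 27.1% and 33.2% of all distal regions. The medians were -0.26 and -0.24, and the quartiles -0.39 and -0.12 for promoters and -0.58 and 0.18 for distal regions. Over the genome the medians were -0.10 for promoters and 0.02 for distal regions. Changes of 2-fold or more occurred at 24 promoters downward and 22 upward (2.75% and 2.52%, genome 2.82% and 4.09%), and at 245 distal regions downward and 170 upward (10.5% and 7.30%, genome 7.98% and 16.0%).

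The difference between the classes was tested with the library as the unit. The mean of promoters minus that of distal regions differed by -0.05 between the groups, with overlapping libraries (exact two-sided permutation p = 0.3), and turned to 0.07 under quantile normalisation. The groups separated, with a larger difference, at a mean of at least 30 (-0.0917), with a pseudocount of 5 (-0.0708), with every annotated region counted as a promoter (-0.0741) and without active library 2 (-0.0769), each with an exact permutation p of 0.1. Without active library 3 the difference was -0.0319 and without inactive library 3 it was -0.0346, both with overlap. On the other chromosomes the same quantity was -0.20, without overlap. The class difference on chromosome 11 was 0.14 less negative than elsewhere, and each active library lay apart from each inactive one in this measure (exact permutation p = 0.1, the smallest possible). It was 0.0849 at a mean of at least 30 and 0.0964 with medians over regions, again without overlap. The other chromosomes, pooled here, had different shifts and were not compared singly. Promoter and distal medians also lay close on chromosomes 16 (-0.16 and -0.14) and 2 (-0.20 and -0.16). They lay farther apart on others, such as chromosome 9 (-0.39 and -0.26).

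The most abundant promoters moved most evenly. Chromosome 11 regions were split by mean value into 3 sets of nearly equal size. In the set of highest mean, 423 of 599 promoters (70.6%) were lower and 7 higher, with a median of -0.26 and quartiles of -0.37 and -0.16. Distal regions of the same set had the same median, -0.26, with 285 of 468 lower and 44 higher. In the set of lowest mean, 31 of 87 promoters were lower and 16 higher, and 314 of 982 distal regions were lower and 194 higher, around medians of -0.30 and -0.26. The median ranged, over the sets and classes, from -0.30 to -0.19, and the spread widened toward low values, where counting error is larger. Promoters of protein-coding genes (26 higher and 480 lower of 775) and of long non-coding RNAs (9 and 25 of 54) had medians of -0.25 and -0.24.

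**Figure D2:**
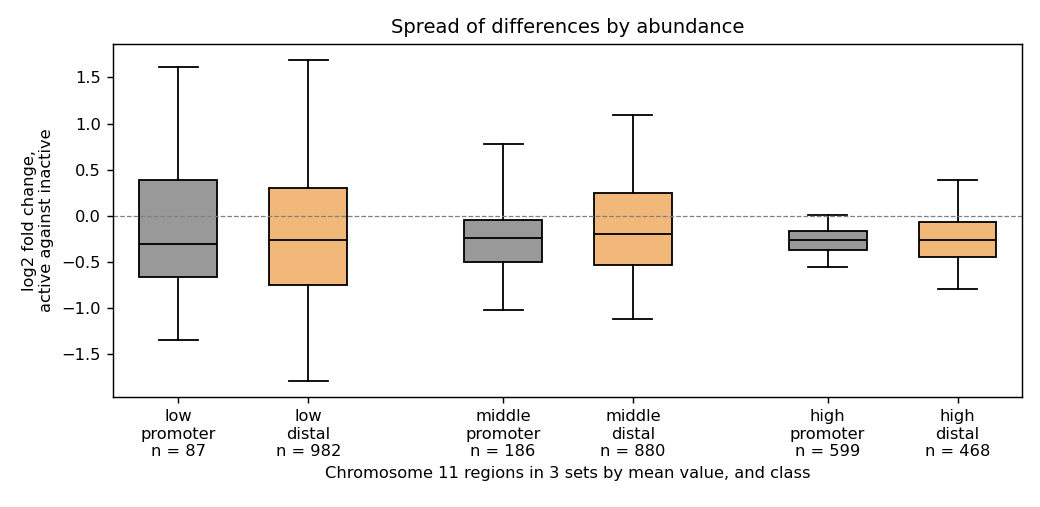
Boxes of log2 fold changes (vertical axis) of chromosome 11 regions, split into low, middle and high sets by mean value and by promoter or distal class, with the median as a line, the quartiles as the box and the 5th and 95th percentiles as whiskers. All 6 medians lie between -0.30 and -0.19, and the box of the high promoters is the narrowest.

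The main question was whether the shift depends on the distance from the knock-in. Fitted over all 3202 regions, the difference between the groups became less negative away from the knock-in by 0.0082 on the log2 scale per 10 Mb. The slopes of the 3 active libraries (0.0054, 0.0037 and 0.0031) all lay above those of the inactive ones (-0.0010, -0.0051 and -0.0061), with an exact two-sided permutation p of 0.1, the smallest the design allows. For promoters the slope was 0.018 per 10 Mb, again without overlap of the libraries (exact permutation p = 0.1). At a mean of at least 30 the promoter slope was 0.0121, still without overlap. For distal regions the slope was 0.0045 with overlapping libraries (exact permutation p = 0.2). The distal libraries separated at a mean of at least 30 (0.00588), with a pseudocount of 5 (0.00518), without inactive library 1 (0.00618), without the last 10 Mb (0.00399), on rank in place of distance (0.00545) and with either other definition of a promoter (0.00543 and 0.00426), each with an exact permutation p of 0.1. With no filter the distal slope was 0.00237 (exact permutation p = 0.4) and under quantile normalisation 0.00251 (exact permutation p = 0.3). The slope over all regions overlapped without active library 1 (0.00752, exact permutation p = 0.2). In absolute size the slope of chromosome 11 over all regions ranked 17th of 20 chromosomes and its promoter slope ranked 5th, where each chromosome's slope was measured from its own last region. Over all regions, chromosome 9 had the largest, -0.0970, and chromosome 6 followed at 0.0755, and in promoters the same 2 led, at -0.0868 and 0.0621.

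Regions at the knock-in end were lower than the rest of the chromosome by a small amount, and whether the libraries separated depended on the class and on the settings. Within 10 Mb of the knock-in lay 444 regions, of which 216 were lower and 59 higher, with a median of -0.28. The other 2758 regions had 1263 lower and 402 higher, with a median of -0.24. The difference between these sets was -0.03 (exact two-sided permutation p = 0.2, libraries overlapping). In promoters it was -0.05 without overlap (exact permutation p = 0.1), and in distal regions -0.02 with overlap (exact permutation p = 0.4). At a mean of at least 30 the difference was -0.0388 over all regions, -0.0497 in distal regions and -0.0249 in promoters, and the libraries separated in each (exact permutation p = 0.1). Without inactive library 1 all regions (-0.0447) and distal regions (-0.0412) separated as well (exact permutation p = 0.1), while without inactive library 3 they overlapped at -0.01997 and -0.00941. With medians over regions, all regions (-0.0460) and distal regions (-0.0582) separated (exact permutation p = 0.1), and promoters overlapped (-0.0305, exact permutation p = 0.2). Under quantile normalisation the difference was -0.0180 over all regions and -0.00389 in distal regions, and with no filter -0.0204 and -0.00903, all with overlap. The promoter and distal values were not tested against each other.

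Finer bins of distance showed no steady course. Within 0.5 Mb of the knock-in, 36 of 56 regions were lower and 8 higher, with a median of -0.37, and at 0.5 to 1 Mb 19 of 35 were lower and 1 higher, with a median of -0.41. The median was -0.30 at 1 to 2 Mb, -0.29 at 2 to 5 Mb and -0.10 at 5 to 10 Mb, where 36 of 111 regions were lower and 29 higher. It was then -0.33 at 10 to 20 Mb, -0.27 at 20 to 40 Mb, -0.26 at 40 to 60 Mb and -0.15 at 60 to 80 Mb. At the far, centromeric end it was -0.20 at 80 to 100 Mb and -0.23 at 100 to 120 Mb. The farthest bin was thus lower than that at 60 to 80 Mb, and the bin at 5 to 10 Mb was the least shifted of all 11. No test was made between bins.

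**Figure D3:**
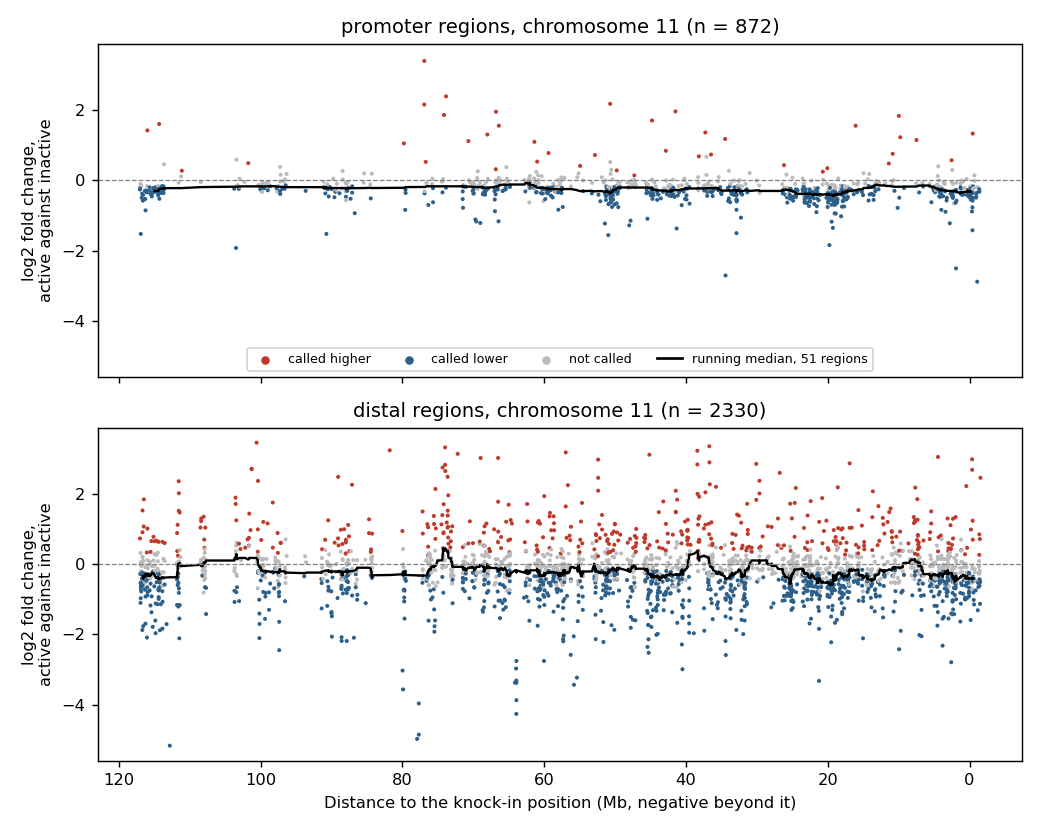
Log2 fold change, active against inactive (vertical axis), of each chromosome 11 region against its distance to the knock-in position in Mb, for promoters (upper panel) and distal regions (lower panel), coloured by the limma call, with a running median over 51 regions. The promoter line stays below 0 throughout, between -0.44 and -0.07, and the distal line runs between -0.59 and 0.45 with local peaks.

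In windows of 10 Mb, 12 of the 13 windows of chromosome 11 were lower with the active ribozyme and 1 was higher by limma on log2 sums, at an adjusted p under 0.05. Over the 268 windows of the genome, 48.1% were lower and 39.9% higher. The largest falls were -0.32 ± 0.02 (SE) at 90 to 100 Mb, -0.30 ± 0.02 at 120 Mb and beyond, and -0.28 ± 0.02 at 100 to 110 Mb. At the opposite end of the chromosome, before 10 Mb, the fall was nearly as large, -0.27 ± 0.02. The smallest fall was -0.09 ± 0.02, at 40 to 50 Mb.

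The window at 10 to 20 Mb was the exception. Its sums were 7722, 7688 and 7871 in the active libraries and 7580, 7484 and 7398 in the inactive ones. The active libraries were all above, by 0.05 ± 0.02 (SE, log2; limma adjusted p = 0.012), but the call was lost without active library 3 and without inactive library 3. The share of the genome's reads in this window thus did not drop with the rest of the chromosome.

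**Figure D4:**
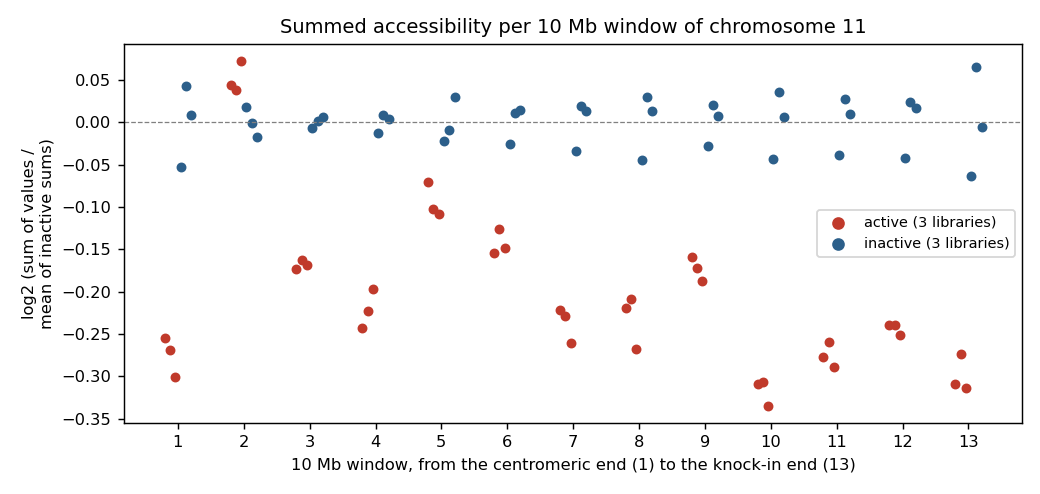
Sum of values in each 10 Mb window of chromosome 11 for each library, as log2 of the ratio to the mean of the inactive libraries (vertical axis), from the centromeric end (window 1) to the knock-in end (window 13). The active libraries lie below all inactive ones in every window except the second, where they lie above.

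At 5 Mb, a broad downward shift was interrupted by short stretches in which distal regions were higher. By limma 20 windows of 5 Mb were lower and 2 were higher, at 15 to 20 Mb (0.05 ± 0.02 SE) and at 35 to 40 Mb (0.13 ± 0.04). Those at 10 to 15 Mb (0.04), 45 to 50 Mb (-0.02) and 80 to 85 Mb (-0.03) passed neither way. Shares of called 5 Mb windows over the genome are not given here. The medians of promoters were below 0 in every window, from -0.05 to -0.39. The -0.05 came from 10 to 15 Mb, which held 1 promoter, and the window at 35 to 40 Mb held 3. Medians of distal regions rose above 0 in 4 windows, at 15 to 20 Mb (0.25), 35 to 40 Mb (0.13), 45 to 50 Mb (0.07) and 80 to 85 Mb (0.13). The running median over 51 distal regions was above 0 at 10.3% of its positions, with its top at 46.0 Mb, and that over 51 promoters at 0%. These 4 windows were picked by their distal medians. Their promoter medians lay from -0.22 to -0.11, all less negative than the -0.26 of all promoters of the chromosome. At 80 to 85 Mb, 20 of 41 promoters were lower and 3 higher, and 26 of 98 distal regions were lower and 35 higher. At 45 to 50 Mb, 7 of 17 promoters were lower and 3 higher, and 12 of 77 distal regions were lower and 28 higher. Over the chromosome, 60.7% of promoters were lower and 4.70% higher, and 40.8% of distal regions were lower and 18.03% higher. Over the genome, these shares were 36.6% and 22.4% for promoters and 27.1% and 33.2% for distal regions.

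The 80 to 85 Mb window holds the chemokine genes of the Ccl family, small secreted proteins that attract leukocytes. Regions annotated to Ccl2, Ccl4, Ccl6, Ccl8 and Ccl9 were among those higher there, together with Heatr9. The regions of Ccl5 and Ccl7 and the other regions of Ccl9 passed neither way, and the Ccl2 promoter was lower. Lower in the same window were Aatf, Ap2b1, Cct6b, Pigw, Tada2a, Zfp207 and others. At 45 to 50 Mb the higher regions included Havcr2, which encodes the immune receptor TIM-3, Flt4, the receptor VEGFR3 of lymphatic endothelium, Nipal4 and Trim7. The Havcr2 promoter read 72, 67 and 66 with the active and 15, 10 and 12 with the inactive ribozyme, a difference of 2.39 (limma adjusted p = 1.75e-12). At 15 to 20 Mb, Egfr, Ppp3r1, Sec61g and Spred2 had lower regions and no region with a symbol was higher.

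Several stretches held consecutive regions that all changed at least 4-fold one way. This search was made after the values were seen, over runs of at least 3 neighbouring tested regions with groups that did not overlap and changes of at least 2 on the log2 scale. Chromosome 11 had 3 such runs downward, with 13 regions, and 3 upward, with 9 regions, of 18 runs (105 regions) downward and 185 runs (779 regions) upward over the genome. Chromosome 11, with 3202 of the 51253 tested regions, thus held 3 of the 18 downward runs, which fell on 12 chromosomes, but few of the upward ones. The downward runs were not particular to it. Chromosome 14 had 2 with 14 regions among 1991 tested, and chromosome 19 had 2 with 13 regions among 1545 tested. No region in a downward run of chromosome 11 carried a gene symbol.

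The longest run spanned 212 kb, from 56064128 to 56275882, and covered 7 regions in a row. In all of them the active libraries read between 0 and 10 and the inactive ones between 20 and 62. Summed, the run gave 20, 19 and 29 in the active and 290, 270 and 261 in the inactive libraries, and single regions differed by -4.26 to -2.76. The tested region before it, at 55638888, went the other way, with 62, 62 and 68 against 25, 28 and 32 (1.15), and the next one after it began at 57336135, with a difference of -0.96.

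A second run lay between 42264194 and 42502145 and comprised the only 3 tested regions between 40681070 and 43016730. Its largest region, at 42501318, read 2, 5 and 3 with the active and 120, 121 and 117 with the inactive ribozyme, a difference of -4.85 (limma adjusted p = 3.7e-19). The run at 64359682 to 64807916 summed to 7, 12 and 16 against 107, 82 and 84. In these stretches the active libraries were thus at or near 0 in every region. Values this low are a few scaled reads, so the size of the fall is uncertain.

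Among the upward runs, that at 46213292 to 46240460 summed to 276, 227 and 278 in the active and 25, 22 and 38 in the inactive libraries. It contained the region with the largest rise among those of above-median level, at 46217080, which read 183, 159 and 185 against 16, 12 and 24, a 10.1-fold ratio of means and 3.32 on the log2 scale (limma adjusted p = 8.68e-19). The tested region before the run passed neither way (0.13) and the next, the promoter of Med7, a Mediator subunit, was lower by -0.21. The run at 67794724 to 67810894 ended at a region of Usp43, a ubiquitin-specific protease, with 63, 49 and 58 against 11, 7 and 11, and the third, at 18903768 to 19617239, summed to 156, 139 and 162 against 13, 17 and 19.

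Of single regions without a symbol, the largest fall was at 7373437. It read 8, 14 and 7 with the active and 385, 383 and 337 with the inactive ribozyme, 38.1-fold lower and -5.17 on the log2 scale (SE 0.17; limma adjusted p = 1.29e-24). The nearest region with a symbol, of Tbrg4, lay 797750 bp away. The next largest falls at or above the median level were at 60164085 (35, 11 and 34 against 162, 170 and 167, -2.76), at 67459415 (-2.14), at 62857540 (-2.14), at 31606537 (-2.08) and at 98972441 (-1.84). The corresponding rises, after that at 46217080, were at 120573378, 44842228 (2.14), 81832637 (2.00), 95535051 (1.74) and 88830527 (1.71).

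The rise at 120573378 stood close to the knock-in, 0.37 Mb from it, where 6 of the 12 other regions within 50 kb were lower and 1 was higher. It read 155, 140 and 158 in the active and 16, 18 and 21 in the inactive libraries, an 8.24-fold ratio of means and 2.98 on the log2 scale (limma adjusted p = 4.21e-19). No active library came near an inactive one. The Aspscr1 promoter, whose region began 9829 bp away and whose gene encodes a tether of the glucose transporter GLUT4, read 319, 337 and 276 against 392, 389 and 419 and was lower by -0.37.

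Within 2 Mb of the knock-in lay 155 regions, of which 89 (57.4%) were lower and 15 (9.68%) higher, with a median of -0.36, beside 46.2% and 14.4% over the whole chromosome. Among the 50 promoters 35 were lower (70.0%, 60.7% over the chromosome) and 1 was higher, and among the 105 distal regions 54 were lower (51.4%, 40.8% over the chromosome) and 14 higher (13.3%, 18.03% over the chromosome). These shares were not tested against the rest of the chromosome. Of the 10 promoters of highest level there, 9 are described, each of them lower by limma. The largest fall of these 9 was at Baiap2, an adaptor that links membrane protrusion to actin, which read 473, 502 and 477 with the active and 651, 632 and 651 with the inactive ribozyme (-0.41 ± 0.06 SE, adjusted p = 3.83e-08). The smallest was at Fasn, fatty acid synthase, with 565, 597 and 568 against 648, 666 and 636 (-0.17 ± 0.05, limma adjusted p = 0.0060). In neither promoter did the groups overlap. Chosen after its values were seen, the weaker promoter of Rab40b, of the Rab GTPase family, at 121278857, read 10, 12 and 6 against 70, 72 and 76 (-2.88, limma adjusted p = 1.37e-13), the largest fall of a promoter on the chromosome.

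The others lay between these values. Narf, which binds prelamin A, differed by -0.37, Aspscr1 by -0.37 and Cenpx, of the centromere and of DNA repair, by -0.33. Metrnl, a secreted factor, differed by -0.32, Ndufaf8, an assembly factor of respiratory complex I, by -0.30 and B3gntl1 by -0.25. Cbx8, a Polycomb gene whose product reads methylated histone H3, differed by -0.19. The calls of Fasn and Cbx8 were lost in limma without the trend and robust settings. Measured against the median of chromosome 11, only the differences of Narf (-0.14) and Baiap2 (-0.18) stayed past the threshold, and those of Fasn (0.06) and Cbx8 (0.04) changed sign.

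The promoters of highest level on the chromosome moved little. Sertad2, a transcriptional coregulator, read 1153, 1225 and 1214 with the active and 1258, 1232 and 1254 with the inactive ribozyme (-0.06, limma adjusted p = 0.21). Wipi1, an autophagy protein, read 1241, 1163 and 1116 against 1128, 1200 and 1171, with overlapping groups (0.0077, limma adjusted p = 0.89). Amz2, a metalloprotease, overlapped as well, with 924, 868 and 944 against 910, 946 and 903 (-0.01, limma adjusted p = 0.83). G3bp1, a core protein of stress granules, Mtmr4, a lipid phosphatase, and Map3k3, a kinase upstream of MAP kinases, were lower by limma by -0.15 each. The call of Mtmr4, whose groups overlapped, was lost without active library 3 (-0.09) or inactive library 2 (-0.12), that of G3bp1 without inactive library 3 (-0.11), and all 3 were lost without the trend and robust settings.

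Wipi1 and Amz2 lie in the 5 Mb window at 105 to 110 Mb, in which 53 of 128 regions (41.4%) were lower and 23 (17.97%) higher, and 4 of the 12 named rises lie there too. Slc16a6, of the monocarboxylate transporter family, had a promoter region with 216, 230 and 258 in the active and 149, 142 and 124 in the inactive libraries (0.76 ± 0.09 SE, limma adjusted p = 6.33e-09). Axin2, a feedback inhibitor of Wnt signalling whose promoter is printed above, read 121, 122 and 108 against 92, 74 and 85 (0.48 ± 0.12, limma adjusted p = 8.12e-04). Abca8b, an ABC transporter, and 9930022D16Rik had distal regions that were higher by 0.78 and 0.62. The active libraries were above the inactive ones in all 4.

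The largest rise at a region with a symbol and at least the median level was at the promoter region of Lif, leukaemia inhibitory factor, a cytokine of the interleukin-6 family. It read 84, 101 and 118 in the active and 35, 36 and 39 in the inactive libraries, a 2.75-fold ratio of means and 1.43 ± 0.15 (SE) on the log2 scale (limma adjusted p = 2.12e-10). Another region of Lif, 1316 bp from the start, moved the opposite way, with 34, 34 and 35 against 54, 70 and 71 (-0.89, limma adjusted p = 2.32e-05). The other regions of the gene, 3813 and 4582 bp from the start, passed neither way. A single gene thus held a rise and a fall of its regions.

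Wnt ligands were represented by Wnt9a, with a promoter at 135, 147 and 137 against 100, 89 and 99, which was higher by 0.54 ± 0.11 (SE, limma adjusted p = 6.58e-05). Its printed sequence is the richest in GC boxes of those shown. The nearby gene Wnt3a, also a Wnt ligand, had a distal region with 74, 67 and 71 against 47, 56 and 56, which was higher by 0.41 (limma adjusted p = 0.017). In neither did the groups overlap.

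The other rises were at distal regions except that of Ccl8. Cep295nl read 139, 147 and 155 against 56, 61 and 56 (1.33), 1.96 Mb from the knock-in. Fam83g, a scaffold protein that binds casein kinase 1, read 349, 359 and 361 against 156, 168 and 153 (1.16 ± 0.08 SE, limma adjusted p = 5.7e-16), the highest level among the 12. Ccl8 read 171, 166 and 151 against 95, 100 and 107 (0.69), and a region of Ccl9, 2384 bp from the start, differed by 0.85. The Ccl9 promoter (-0.26) and its distal regions at 4705 bp (-0.22) and 1333 bp (-0.36) passed neither way. Trim7, a ubiquitin ligase, and Coro6, an actin-binding coronin, were higher by 0.48 and 0.39. The call of Trim7 was lost without active library 3 (0.36).

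The largest fall at a region with a symbol and at least the median level was at the promoter of Lgals3bp, a secreted glycoprotein that binds galectin-3, 1.91 Mb from the knock-in. It read 24, 12 and 34 with the active and 121, 126 and 132 with the inactive ribozyme, 5.41-fold lower in the ratio of means and -2.50 ± 0.24 (SE) on the log2 scale (limma adjusted p = 9.47e-09). Every active library was far below every inactive one. Its printed promoter has the fewest CpG pairs of those shown and no GC box.

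Prorsd1, whose name refers to a prolyl-tRNA synthetase domain, had a promoter at 39, 53 and 46 against 128, 128 and 143, lower by -1.52 ± 0.14 (SE, limma adjusted p = 1.92e-12). Neighbouring genes fell together at 75 Mb, where Serpinf1, the secreted anti-angiogenic factor PEDF, had a region with 51, 34 and 44 against 146, 172 and 132 (-1.79) and Smyd4 one with 40, 44 and 54 against 133, 147 and 118 (-1.51). Ndel1, a partner of the motor protein dynein, had a promoter at 56, 46 and 51 against 113, 112 and 137 (-1.22). None of these groups overlapped.

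Stat5a, a transcription factor of cytokine signalling, had a promoter at 46, 48 and 51 with the active and 96, 116 and 120 with the inactive ribozyme (-1.17 ± 0.14 SE, limma adjusted p = 1.97e-09). The promoter of its neighbour Stat5b was lower as well, at 122, 115 and 121 against 182, 204 and 194 (-0.69), while that of Stat3, next to them, read 600, 659 and 576 against 637, 706 and 651 and did not pass (-0.12, limma adjusted p = 0.066). Ifi35, an interferon-induced gene, was lower by -0.94 and Cntd1, a cyclin-like gene of meiosis, by -0.93. Ranbp17, a nuclear transport receptor, Epn3, an endocytic epsin, and Gm16487 differed by -0.93, -0.91 and -0.91. Rnf213, a large ubiquitin ligase, had a distal region lower by -0.84 and a promoter at 64, 49 and 61 against 55, 69 and 54 that passed neither way.

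**Figure D5:**
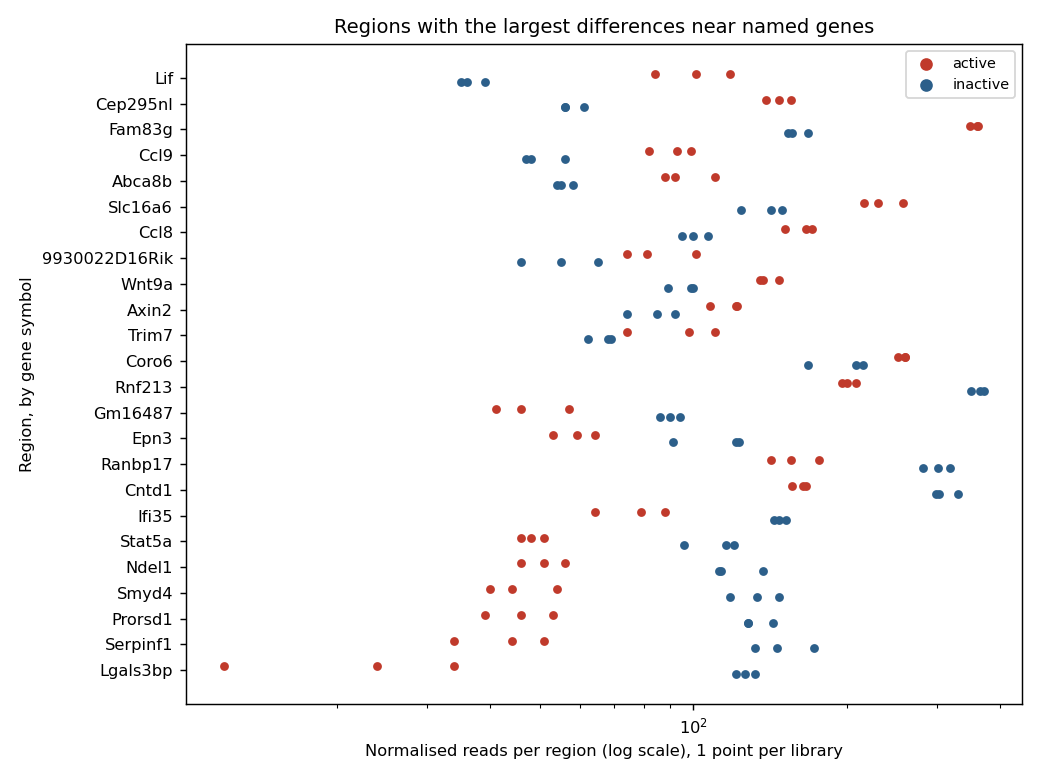
Values of each of 6 libraries (horizontal axis, normalised reads per region on a log scale) for the 24 named regions with a gene symbol, ordered by fold change from Lgals3bp at the bottom to Lif at the top. Active and inactive libraries do not overlap in any of them, which was a condition of their choice.

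Gene lists of the chromosome were described by their counts and medians, beside 14.4% higher and 46.2% lower among all its regions and a median of -0.25. Promoters make up a larger part of most lists than of the chromosome, so their counts are also given beside the 60.7% lower and 4.70% higher of all its promoters. The lists were not matched by level, and 70.6% of the chromosome's promoters in the set of highest mean were lower. Examples are members of highest level, and further ones were chosen after their values were seen. Cell cycle and DNA repair genes, 23 of 25 of which were in the table, had 21 of 27 regions lower and 0 higher, with a median of -0.35, and 18 of 21 promoters lower. Trp53, the p53 tumour suppressor, read 144, 141 and 124 at its promoter with the active and 159, 204 and 179 with the inactive ribozyme (-0.40). The highest levels of this list were at Mis12, of the kinetochore (-0.20), and at Aurkb, a mitotic kinase, which read 453, 364 and 395 against 602, 646 and 651 at a distal region (-0.65). The 6 regions that passed neither way included those of Cenpv (-0.08) and Sphk1 (0.14).

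Chromatin regulators, 21 of 24, had 26 of 32 regions lower, 0 higher and a median of -0.31, with 14 of 19 promoters lower. Those of highest level were at H3f3b, which encodes the histone variant H3.3, at 497, 479 and 435 against 645, 681 and 648 (-0.49), and at Jmjd6 (-0.31). Suz12, a subunit of Polycomb repressive complex PRC2, differed by -0.32 and Kat7, a histone acetyltransferase, by -0.47. The region of Kdm6b, a demethylase, with the highest level of that gene passed neither way (0.04), and 3 others of the gene were lower.

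Metabolic enzymes, 15 of 22, had 13 of 16 regions lower, 1 higher and a median of -0.33, with 11 of 13 promoters lower. Acly, which makes cytosolic acetyl-CoA, read 292, 306 and 281 against 355, 421 and 391 (-0.41), and Fasn is given above. The rise was at a distal region of Pgs1, with 87, 78 and 85 against 39, 60 and 53 (0.73).

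Growth factor and kinase genes, 23 of 32, had 21 of 32 regions lower, 3 higher and a median of -0.29, and 14 of 19 promoters lower and 2 higher. The 3 rises were those of Lif, Axin2 and Wnt3a. Chosen after its value was seen, the promoter of Egfr, the epidermal growth factor receptor, read 15, 16 and 19 with the active and 60, 68 and 69 with the inactive ribozyme (-1.92, limma adjusted p = 8.59e-11). Its groups did not overlap. Erbb2, a receptor of the same family, had a promoter at 172, 194 and 189 against 240, 245 and 225 (-0.35).

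Extracellular matrix and adhesion genes, 14 of 22, had 15 of 24 regions lower, 4 higher and a median of -0.35, with 5 of 6 promoters lower. The promoter of Col1a1, the main collagen chain of fibroblasts, read 250, 279 and 230 against 307, 308 and 319 (-0.30). Of highest level were the distal regions of Itga2b, an integrin of platelets (-0.36 and -0.62), and of Sparc, a matrix glycoprotein (-0.18). Timp2, an inhibitor of metalloproteinases, was lower at both of its regions (-0.63 and -0.66), and the 4 rises were at distal regions of Itga3, Itgae, Itgb3 and Mfap4.

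Actin cytoskeleton and myosin genes, 20 of 33, had 14 of 31 regions lower (45.2%), 4 higher (12.9%) and 13 that passed neither way, shares near those of the chromosome, with a median of -0.17. Of 20 promoters 10 were lower and 2 higher. These counts include Kif1c, a kinesin and not an actin or myosin gene, whose promoter was lower (-0.32). Myh10, non-muscle myosin IIB, had the promoter of highest level and passed neither way, with 648, 615 and 642 against 644, 679 and 663 (-0.06). Pfn1, profilin, which delivers actin monomers, had a promoter region at 434, 484 and 398 against 526, 524 and 556 (-0.29), and Baiap2 is given above. Both promoter regions of Rac3, a small GTPase 0.41 Mb from the knock-in, were lower (-1.42 and -0.76). The 4 rises were at both regions of Coro6, at Gas7 and at a distal region of Arhgap23.

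Chemokine and interferon response genes, 15 of 29, were the list with the fewest falls, with 3 of 22 regions lower, 5 higher, 14 that passed neither way and a median of -0.10. Of its 12 promoters 2 were lower and 1 was higher. Ccl2, a chemokine for monocytes, had a distal region at 302, 267 and 303 against 251, 252 and 269 that was higher by 0.17 and a promoter at 191, 175 and 175 against 197, 228 and 209 that was lower by -0.23. Irf1, an interferon-regulated transcription factor, read 227, 253 and 253 against 258, 273 and 268 and did not pass (-0.13). Chosen after their values were seen, distal regions of Ccl6 (67, 60 and 42 against 6, 7 and 2, 3.35) and Ccl4 (28, 23 and 26 against 6, 5 and 3, 2.27) were the largest rises of the lists, and the promoter of Xaf1, a proapoptotic interferon target, read 13, 34 and 14 against 44, 42 and 53 (-1.28). Of the Hoxb genes, 0 of 10 were matched to a tested region by symbol.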

How the data were processed

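ATAC-seq values of 6 libraries, 3 with the active and 3 with the inactive ribozyme, were read from the authors' deposited table on build mm39, and groups were taken from the knock-in label. Their unit is a score, namely the read total of a region after the authors' scaling of each library and rounding to whole numbers, as the deposited values themselves show. Tools named by the submitters' processing notes are STAR 2.7.11a, Trimmomatic 0.39, DESeq2 1.36.0, featureCounts and Picard 3.1.1. Peak calling, merging and the treatment of Tn5 offsets were not given in the sources used here. Because the values are scaled and rounded, reads were not recovered and no count test was run.

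Log2(value + 1) was fitted with limma 3.58.1 (trend and robust settings) in R 4.3.3 over all 51253 regions with a mean of at least 10, with no covariate, with Benjamini-Hochberg adjustment over the whole table and a threshold of 0.05. Windows of 10 Mb with at least 20 regions were fitted the same way on log2 sums. Values with 1 number per library (level, slope on distance, class and chromosome differences) were compared by exact two-sided permutation of the library labels. Both procedures were tested on simulated data. Python 3.11.15, numpy 2.4.6, pandas 2.3.3 and matplotlib 3.10.9 were used for tables and plots.

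Named regions with a symbol were the 12 higher and 12 lower with the largest change among those with a mean at or above the median of the chromosome, an adjusted p under 0.05 and groups that do not overlap, 1 per gene. To these were added the 10 of highest level within 2 Mb of the knock-in, the 6 promoters of highest level, the 6 regions without a symbol of largest change each way, and 2 to 4 list members by largest mean. Of the 10, 1 is not reported here. Others were chosen after their values were seen. The members and the lists were chosen with earlier results of these data known. Alternatives were other pseudocounts, filters, scalings, windows, promoter limits and limma settings, the replicate number as a block and each library left out.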

Additional observations from a re-analysis of the deposited data

How the results depend on the processing

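The lower level of chromosome 11 held its direction under quantile normalisation (-0.22) and under every filter tried. Rescaling whole libraries could not change this level, because it is a share of each library's own sum. With each library left out in turn, the level difference lay between -0.24 and -0.22, the regions called between 1642 and 1890, those higher between 420 and 463 and those lower between 1221 and 1427. The number of higher 10 Mb windows was 0 or 1 in those fits, and it was 0 with a mean of at least 30, under quantile normalisation and with libraries rescaled on the other chromosomes. With 5 Mb windows 20 were lower and 2 higher, and with 20 Mb windows 7 and 0, since the number of windows differs. Genome shares for these 2 sizes are not given here. The difference from chromosome 18 ranged from -0.014 to 0.017 with a library left out and was -0.00045 with a pseudocount of 0.5. Promoter minus distal turned to 0.067 under quantile normalisation, and the cause was not tested. Centred on the median of chromosome 11, an alternative added after the data were seen, 750 regions were higher and 697 lower, so that 48.2% of calls were lower. This centring raises every fold change on the chromosome by about the size of the shift, by construction. It reversed Fasn (0.060), Cbx8 (0.039), Sertad2 (0.17), G3bp1 (0.087), Mtmr4 (0.078), Map3k3 (0.077) and Amz2 (0.22). Near 0 from the start, Wipi1 ranged from -0.033 to 0.043 with a library left out, negative without active library 1 or inactive library 1 (-0.016), and was negative under quantile normalisation (-0.012) and rescaled on the other chromosomes (-0.012). Amz2 ranged from -0.038 to 0.023, positive without active library 2 or inactive library 2 (0.0078), and was 9.03e-05 under quantile normalisation.

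Same-numbered libraries did not deviate together (correlations of 0.0014, -0.0060 and -0.016). This shows no pairing in the values but cannot show whether such libraries were prepared together. With the replicate number as a block, 1920 regions were called, 458 higher and 1462 lower, and 12 windows were lower and 1 higher. For single values the block allows no exact p below 0.25.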
